A study of Canis lupus familiaris with 12 samples.

Results

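Glutamine synthetase (GLUL), the carbonic anhydrases CA1 and CA2 and the ammonia channels RHBG and RHAG were followed in Madin-Darby canine kidney (MDCK) cells after 24 h in acid medium. These 5 genes, of 944 that could be given a symbol, were taken with every array probe whose RefSeq transcript belongs to them. That gave 8 of the array's 43603 gene probes: 1 each for GLUL, CA1 and RHBG, 2 for CA2 and 3 for RHAG. All 3 RHAG probes are assigned to the same transcript, and so are both CA2 probes.

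MDCK is an established epithelial line from dog kidney tubule. One group was kept at pH 7.0, in medium whose bicarbonate had been lowered, and the control group at pH 7.4, so low pH and low bicarbonate cannot be told apart here. Both groups had been moved to serum-free medium the day before. Each of 3 biological replicates gave 1 RNA per pH, with extractions on separate dates. Duplicate hybridisation of the 6 RNAs to one-colour Agilent arrays made 12 arrays, so a group held 3 RNAs and 6 arrays. The 4 arrays of a biological replicate shared a slide and a scan date, and that slide cannot be told apart from the replicate.

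The kidney disposes of acid largely as ammonium, which tubule cells release from glutamine, while it regenerates bicarbonate. Glutamine synthetase runs the opposite way: it joins ammonia to glutamate. Carbonic anhydrases interconvert carbon dioxide with bicarbonate and a proton; CA2 is the main cytosolic form of kidney tubule cells and CA1 is best known from red cells. Rh glycoproteins let ammonia cross membranes, RHBG on the basolateral side of collecting duct cells and RHAG in the red cell membrane.

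The scanner program called 49.4% to 70.4% of an array's probes well above background, and the lowest shares belonged to biological replicate 2. The 75th percentile of the signal ran from 410 to 944. Values below are log2 signals minus that percentile, and a change is pH 7.0 minus pH 7.4 within a biological replicate, with the standard error and adjusted p of a limma fit over all tested probes (3 pairs of RNAs). The signal is measured per amount of labelled RNA, so fewer cells expressing a gene and less RNA per cell cannot be told apart. Of the 27136 tested probes 0% passed an adjusted p of 0.05, the smallest being 0.0502, and none of these genes' probes passed either. An unadjusted p under 0.05 was reached by 12.2% of the tested probes and by 1 of the 5 unsaturated tested probes of these genes, that of GLUL. The median change of all tested probes was 0.012.

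**Figure D1:**
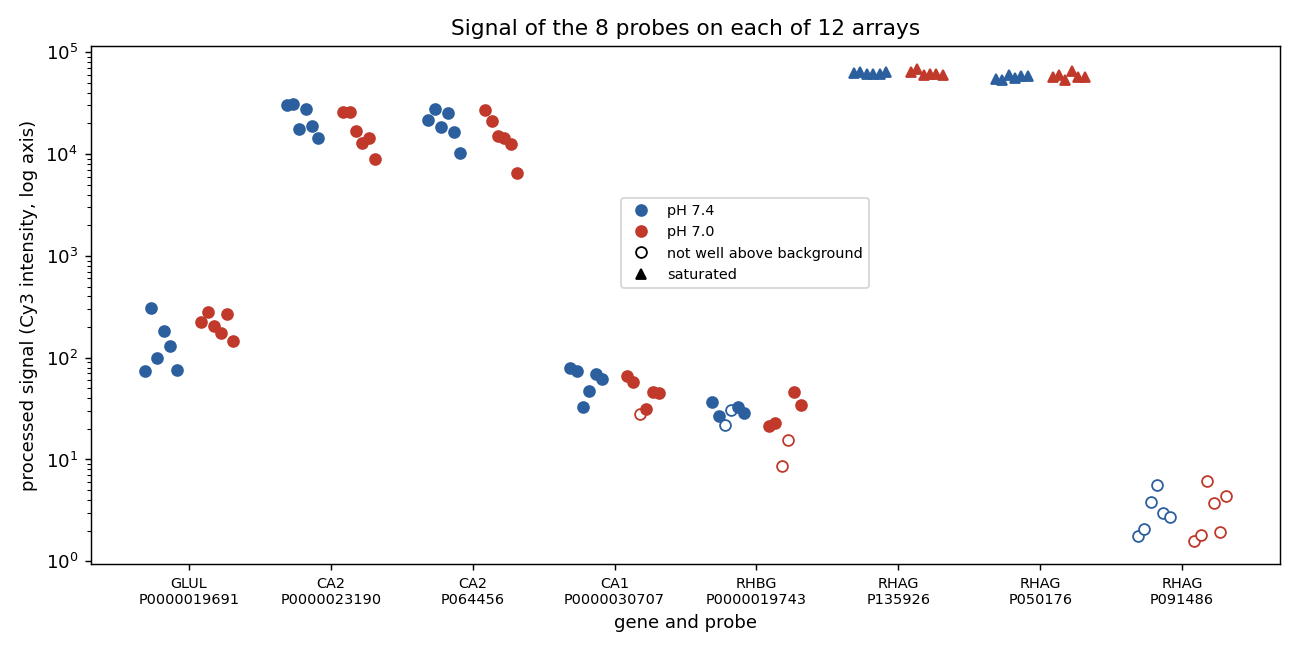
Processed Cy3 signal (log axis) of the 8 probes on each of the 12 arrays, blue at pH 7.4 and red at pH 7.0, with open circles where a spot was not well above background and triangles where it was saturated. A pair of RHAG probes lies at the ceiling on 12 of 12 arrays, while the third RHAG probe is not well above background on any.

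GLUL had the lowest p of the 4 genes with a usable measurement, and it was higher at pH 7.0 without passing the test over all probes. Its probe was well above background on 12 of 12 arrays and saturated on none. The processed signal at pH 7.0 had a lowest value of 146, a median of 213 and a highest of 283, against 74.4, 115 and 310 at pH 7.4. The scaled values of the 3 RNAs were -1.60, -1.27 and -1.71 at pH 7.0 and -2.45, -2.05 and -2.59 at pH 7.4. Every RNA at pH 7.0 thus lay above every RNA at pH 7.4, which 1 of these 5 unsaturated probes did in either direction, against 8.09% of all tested probes. The changes of biological replicates 1 to 3 were 0.85, 0.79 and 0.88. The change over the 3 pairs was 0.84 ± 0.22 (SE, n = 3 pairs), a 1.79-fold higher signal with a 95% interval of 1.28- to 2.51-fold, and the adjusted p was 0.184.

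The even changes of GLUL did not carry through to the single arrays. In biological replicate 1 the arrays of the pH 7.4 RNA read -3.30 (array 1) and -1.60 (array 2), while those of the pH 7.0 RNA read -1.67 and -1.54. One control array was therefore far below both acid arrays, and the other lay between them. The 1.7 between these duplicates was at least as large as in 97.2% of the tested probes on that pair, where the median difference was 0.47. Left with array 2 alone, the pH 7.4 RNA sat inside the pH 7.0 range, and the change of biological replicate 1 was 0.00052. Left with array 1 alone, it was 1.7.

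The other biological replicates did not depend on a single array in this way. In biological replicate 2 the 4 differences between an acid and a control array ran from 0.74 to 0.84, and in biological replicate 3 from 0.57 to 1.19. Duplicates of GLUL there differed by 0.36 or less. Fitted over all 3 pairs, the change of GLUL was 0.56 (limma adjusted p = 0.327) without pH 7.4 array 1 and 1.12 (adjusted p = 0.417) without pH 7.4 array 2. Without biological replicate 1 it was 0.83 ± 0.28 (adjusted p = 0.191).

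**Figure D2:**
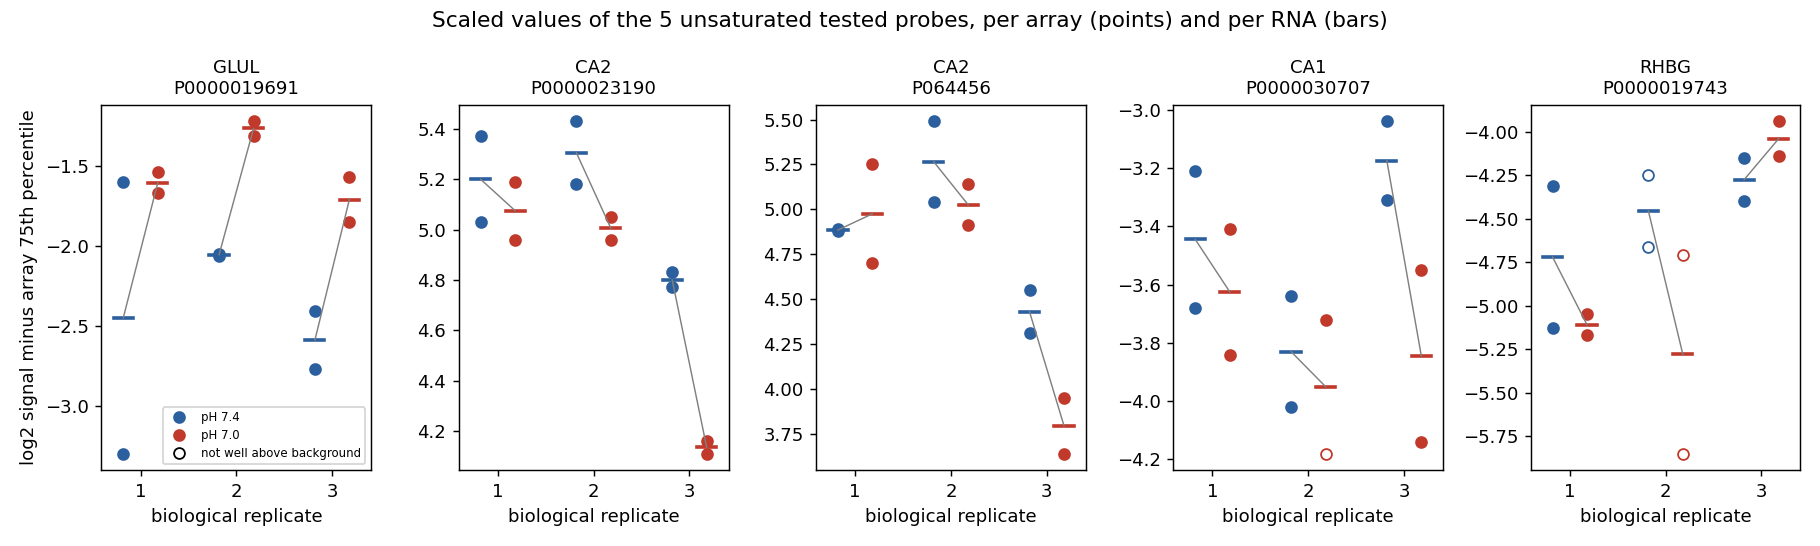
Log2 signal minus the array's 75th percentile for the 5 unsaturated tested probes in biological replicates 1 to 3, with a point per array, a bar per RNA and a grey line joining the pair; open points were not well above background. For GLUL the red bar is above the blue one in all 3 replicates, and the blue points of replicate 1 lie 1.7 apart.

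CA2 gave bright, unsaturated signals in every sample and was somewhat lower at pH 7.0 in most pairs, without passing. On probe A_11_P0000023190 the signal at pH 7.0 had a lowest value of 9040, a median of 15600 and a highest of 25900, against 14500, 23400 and 30900 at pH 7.4. Scaled values of the RNAs were 5.07, 5.00 and 4.13 at pH 7.0 and 5.20, 5.31 and 4.80 at pH 7.4. The groups overlapped, since the highest acid RNA lay above the lowest control RNA. The differences were -0.13, -0.30 and -0.67, and the change was -0.37 ± 0.23 (adjusted p = 0.566). Its 95% interval ran from -0.88 to 0.15, so a signal 1.84-fold lower and one 1.11-fold higher both lay within it.

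The second CA2 probe, A_11_P064456, followed the first across RNAs but not in sign in every pair. Its values were 4.97, 5.03 and 3.80 at pH 7.0 and 4.89, 5.26 and 4.43 at pH 7.4, again with overlap. The change was -0.26 ± 0.24 (adjusted p = 0.714), with 0.088 in biological replicate 1 and -0.24 and -0.64 in the others. Pearson's r between both CA2 probes over the 6 RNAs, which share slides in pairs, was 0.962. Duplicate arrays of the first CA2 probe differed by 0.17 on average, an average as small as in 8.33% of tested probes, and those of the second by 0.30. The lower values of both probes came mainly from biological replicate 3, and without it the changes were -0.22 and -0.073.

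CA1 was dim and not distinguishable between the media at this precision. Its signal lay between 27.8 and 66.8 (median 45.3) at pH 7.0, where 5 of 6 arrays were well above background, and between 33.0 and 79.3 (median 66.1) at pH 7.4, where all 6 were. The RNAs stood at -3.63, -3.95 and -3.84 in acid and at -3.45, -3.83 and -3.18 in control medium, and the groups overlapped. All 3 pairs were lower at pH 7.0, by -0.18, -0.12 and -0.67, for a change of -0.32 ± 0.23 (adjusted p = 0.628; 95% interval -0.84 to 0.20). Duplicate arrays differed by 0.43 on average, more than the change itself. Without biological replicate 3 the change was -0.15. One direction in all 3 pairs was seen for 3 of the 5 unsaturated probes, those of GLUL and CA1 and the brighter CA2 probe, against 33.7% of all tested probes.

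CA1 and CA2 are close neighbours in the dog assembly UU_Cfam_GSD_1.0, where CA3 is the protein-coding gene between them on chromosome 29. None of the 3 probes of CA3, a muscle form, passed the scanner's background call on any of the 12 arrays, so for this neighbour only a bound is known in either medium.

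**Figure D3:**
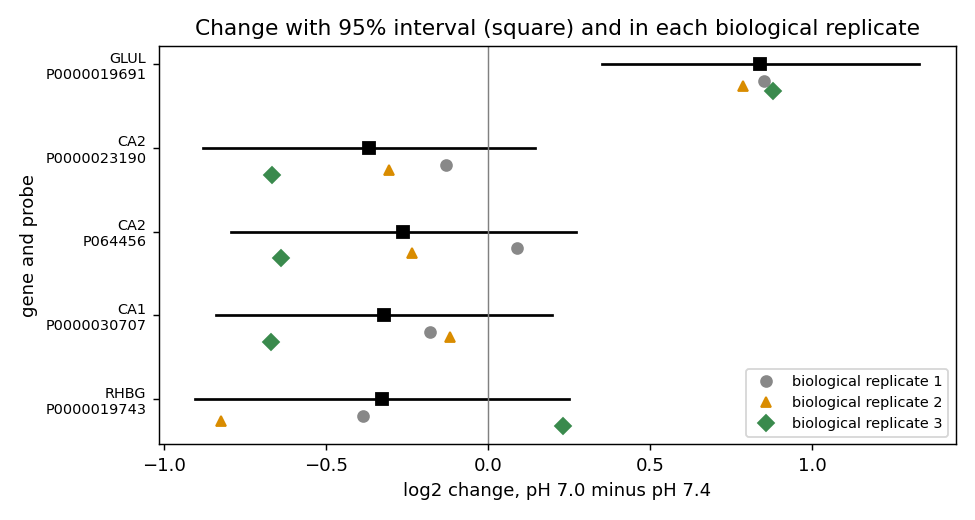
Log2 change (pH 7.0 minus pH 7.4) of the 5 unsaturated tested probes: squares are the limma estimates with 95% intervals, and small symbols are the 3 biological replicates. The GLUL interval, 0.35 to 1.33, is the only one of these 5 that lies off 0 before adjustment, and the RHBG replicates fall on both sides of 0.

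RHBG, a renal ammonia channel, was near the detection limit. Its signal had a lowest value of 8.72, a median of 22.2 and a highest of 45.7 at pH 7.0, and 21.6, 29.6 and 37.0 at pH 7.4. Well above background were 4 of 6 arrays in each group, and the 4 arrays that failed were all those of biological replicate 2. The RNA values were -5.11, -5.28 and -4.04 at pH 7.0 and -4.72, -4.46 and -4.27 at pH 7.4, so the groups overlapped. The change of -0.33 ± 0.26 (adjusted p = 0.666) was made up of -0.39, -0.82 and 0.23.

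The largest of these RHBG differences, -0.82, thus came from the biological replicate in which the scanner's background call failed. Raw signal over local background conflicts with that call. It was 1.41 to 1.85 in biological replicate 1, 2.86 to 3.42 in replicate 2 and 2.52 to 3.49 in replicate 3. The replicates in which the call passed, 1 and 3, disagreed in sign. Without biological replicate 2 the change was -0.078 ± 0.36 (limma adjusted p = 0.992), with a standard error that these genes' unsaturated tested probes all shared. Without pH 7.0 array 3, one of the arrays that failed the call, the change was -0.14. With normexp background correction, after outlying local backgrounds were set to the array's median, RHBG had the opposite sign (0.043).

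RHAG gave no usable measurement of its level, because its probes read as opposite extremes. Probes A_11_P135926 and A_11_P050176 were saturated on 12 of 12 arrays, with the median pixel of every spot at the scanner's ceiling of 65528. Their processed signals ran from 59700 to 67700 and from 53600 to 65300, and no fold is given. Probe A_11_P091486, assigned to the same transcript, was well above background on 0 of 12 arrays, with signals from 1.59 to 6.14 at pH 7.0 and from 1.78 to 5.67 at pH 7.4. It was not tested.

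Other red cell genes ranged from not detected to detected throughout. The red cell surface glycoprotein GYPC and the anion exchanger SLC4A1 were not well above background on any of the 12 arrays, whereas EPB41 (a membrane skeleton protein), the transferrin receptor TFRC and the erythropoietin receptor EPOR were on all 12. RHCE, an Rh protein of the same family, was detected on 12 of 12 arrays at signals of 60.2 to 146 and stood at 0.19 ± 0.22 (adjusted p = 0.795). The estimates of the others were -0.77 ± 0.25 (adjusted p = 0.266) for EPB41, 0.13 ± 0.22 for TFRC and 0.28 ± 0.28 for EPOR, so the tested red cell genes lay on both sides of 0. In all, 9 of the 26 listed red cell markers had a named probe, CA1 and RHAG among them. Above background on all 12 arrays were 5, and these include RHAG through its saturated probes. Leaving out RHAG, whose brightest probe is at the scanner's ceiling, the brightest probes of the other 8 summed to 0.947 to 2.12 times the array's 75th percentile at pH 7.0 and to 0.978 to 1.9 times at pH 7.4. What the saturated probes detect was not tested.

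The tubule character of the line could be checked on few markers. Of 26 kidney tubule epithelium genes 8 had a named probe, and 4 were above background on all 12 arrays: CUBN, an endocytic receptor of the proximal tubule, the tight junction proteins TJP1 and OCLN, and the sodium pump subunit ATP1B1. UMOD, of the thick ascending limb, was detected on 0 arrays. Estimates of the tested tubule genes ran from -0.69 ± 0.32 (adjusted p = 0.435) for ATP1B1 to 1.15 ± 0.29 (adjusted p = 0.174) for CLDN2, a tight junction channel above background on 8 of 12 arrays. These extremes were named after their values were seen. That of CLDN2, whose signals ran from 5.41 to 94.4, was larger than the change of GLUL. The list summed to 6.63 to 8.86 times the 75th percentile at pH 7.0 and to 7.82 to 12.3 times at pH 7.4. Of 11 markers of intercalated cells, the acid-base cells of the collecting duct, 5 had a named probe. CA2 was on all 12 arrays, RHBG on 8, and SLC4A1 and RHCG on 0; the list summed to 17.3 to 36.4 and 27.4 to 43.2, most of it CA2.

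Markers of other cell types were few as well. Named probes covered 4 of 10 fibroblast, 2 of 10 leukocyte and 2 of 6 endothelial markers. By the brightest probe of a gene, 2, 0 and 1 of them were above background on all 12 arrays. Both of these fibroblast genes, COL1A1 and COL1A2, also had a probe above background on 0 arrays. At pH 7.0 and pH 7.4 the lists summed to 1.18 to 2.21 and 1.37 to 2.44 for fibroblasts. They summed to 0.026 to 0.060 and 0.022 to 0.071 for leukocytes, and to 1.32 to 5.02 and 1.51 to 2.56 for endothelium. The part of any of these lists in the results above was not tested.

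Few other genes of these pathways could be named and tested, and none passed over all probes. Among 25 genes of glutamine and ammonia metabolism 3 were tested and 3 had a positive estimate (median 0.50), as did 13921 of all 27136 tested probes, whose median was 0.012. An unadjusted p under 0.05 was reached by GLUL itself and by 1 other gene, against 12.2% of all tested probes. That gene was ARG2, the mitochondrial arginase that makes urea and ornithine, at 0.50 ± 0.22 (adjusted p = 0.404), with 0.29, 0.66 and 0.56 in the replicates. AMT, a subunit of the ammonia-releasing glycine cleavage system, stood at 0.094 ± 0.22. The glutamate carrier SLC1A1 stood at -0.12 ± 0.25, the 1 tested gene of 17 in glutamine transport. SLC1A2, SLC1A3 and SLC3A1 were too dim to test. No gene of renal gluconeogenesis had a named probe.

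Bicarbonate and proton transport added little. Of 16 carbonic anhydrase genes 3 were tested (median -0.32). Beside CA1 and CA2, the cell-surface form CA9 stood at -0.017 ± 0.23, with replicates on both sides of 0 (-0.27, -0.026 and 0.24). A negative estimate was found for 13215 of all 27136 tested probes, so the shared sign of these 3 is not read as a result. CA6, the secreted form of saliva, was detected on 0 arrays. RHCG, an apical ammonia channel of the collecting duct, was detected on 0 arrays. The water channel AQP1 was detected on 4 of 6 at pH 7.0 and 1 of 6 at pH 7.4. It was too dim to test, so no difference is read from these counts. In the Rh and ammonia channel list 2 of 20 genes were tested, RHBG and RHCE (median -0.070). Both named bicarbonate carriers, SLC4A1 and CFTR, were not well above background on any of the 12 arrays. Of 41 proton transport genes 2 were tested: ATP4A, the gastric proton pump subunit (0.087 ± 0.26), and ATP6V0E1, a subunit of the vacuolar proton pump (0.067 ± 0.30; median of both 0.077).

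**Figure D4:**
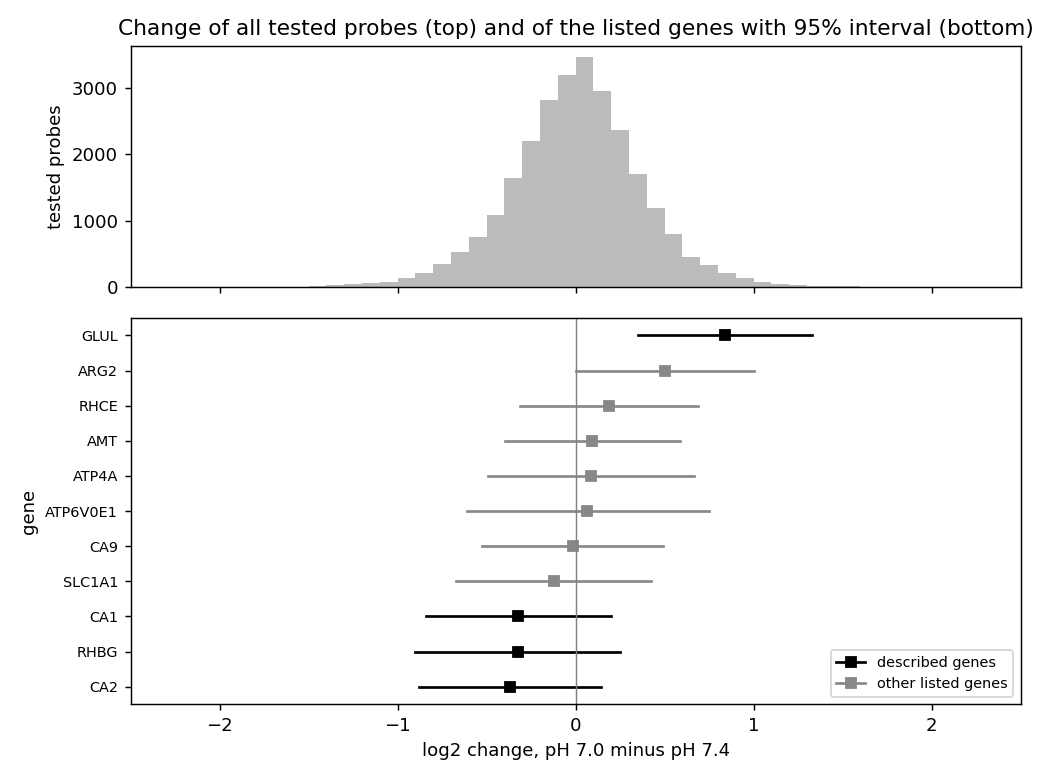
Top: number of tested probes by log2 change (pH 7.0 minus pH 7.4, bins of 0.1). Bottom: estimates and 95% intervals of the 11 tested genes of the pathway lists, black for GLUL, CA1, CA2 and RHBG; GLUL at 0.84 and ARG2 at 0.50 are the highest.

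GLUL lay towards the upper edge of all measured changes without standing alone there. A change at least as high was found for 2.04% of the tested probes, and its unadjusted limma p of 0.00339 ranked at 500 of 27136. CA2, CA1 and RHBG, at -0.37, -0.32 and -0.33, had unadjusted p of 0.141, 0.196 and 0.236. Under 26 alternative settings GLUL stayed higher at pH 7.0, between 0.31 and 1.12, and its adjusted p ran from 0.103 to 1. The lowest estimate, 0.31 ± 0.41, came from normexp background correction, where these genes' unsaturated probes had nearly the same standard error (0.406 to 0.408). Under it the median of all tested probes moved to -0.19. Relative to that median GLUL was then at 0.50, CA1 at -0.52 and RHBG at -0.42. The CA2 probes were at 0.087 and 0.16 and so turned positive. With outlying local backgrounds replaced before normexp, GLUL stood at 0.57 ± 0.14 (limma adjusted p = 0.24) and the median of all tested probes at 0.030.

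**Figure D5:**
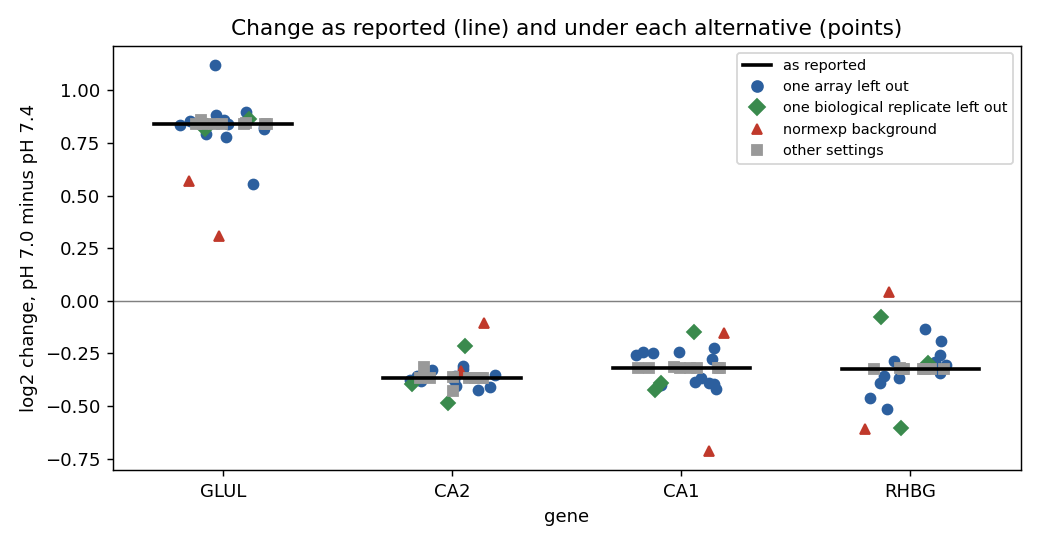
Log2 change (pH 7.0 minus pH 7.4) of GLUL, CA2, CA1 and RHBG as reported (black line) and under each alternative (points). GLUL is above 0 throughout, from 0.31 to 1.12; CA2 and CA1 are below 0, though CA2 is above the median of all probes under normexp, and RHBG crosses 0 under 1 setting.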

How the data were processed

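RNA of MDCK cells at pH 7.0 or pH 7.4 was measured on 12 one-colour Agilent arrays, 6 per group. Scans were read with Agilent Feature Extraction 10.7.3.1, per the submitters' processing notes. The deposited scanner files hold the Cy3 intensity of each spot, background-subtracted, per the file headers. The authors also deposited log2 values with no stated scale or centring, used here as an alternative. Those columns followed the 75th-percentile-scaled log2 signals once each probe was centred on its median (slopes of 0.9997 to 1). Their medians, in the order of array number, were -0.112, -0.15, 0.225, 0.213, -0.226 and 0.0169 in acid and 0.02, -0.211, 0.213, 0.0789, -0.086 and 0.0652 in control medium.

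From the scanner files, control spots were dropped, 128 outlier spots were set to missing and spots of a probe were averaged as log2. Tested probes were well above background on at least 6 of 12 arrays. RefSeq accessions without version, matched to the UU_Cfam_GSD_1.0 annotation, named 1484 probes (3.4%). Sequences of these genes and probes are not used here. The 2 arrays of an RNA were averaged, and limma 3.58.1 (R 4.3.3; two-sided, Benjamini-Hochberg over all tested probes) was fitted with the biological replicate as a block and tested on simulated data. Arrays were assigned to biological replicates from the numbers in the titles (1 and 2, 3 and 4, 5 and 6). Pairing rests on the shared extraction date. Deviations from the group means correlated at 0.394, 0.637 and 0.807 within pairs and at -0.628 to 0.255 across pairs. The arrays of a pair also shared a slide, so these values cannot verify the pairing. The replicates are extractions from 1 line, and p-values refer to their spread as moderated by limma with that of all tested probes. In some alternatives the moderation outweighed a probe's own spread. Without biological replicate 2 the standard error was 0.364 for all unsaturated tested probes of these genes, and under normexp it was 0.406 to 0.408. Those errors hardly reflect the spread of a single gene. The 3 pairs limit the precision. Every probe of the 5 genes was named; from pathway lists of 6 or fewer tested genes all were. Marker lists had no such rule, and markers and undetected genes were named after their values were seen. Some genes under these rules are not reported here. The genes and lists were chosen with earlier results of these data known. Figures used python 3.11.15 and matplotlib 3.10.9.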

Additional observations from a re-analysis of the deposited data

How the results depend on the processing

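The number of these genes' probes past an adjusted p of 0.05 was 0 under all 26 alternatives. GLUL, CA1 and CA2 kept their sign under every alternative that gave a value for them, at 0.31 to 1.12, -0.71 to -0.15 and, for the CA2 probes A_11_P0000023190 and A_11_P064456, -0.49 to -0.10 and -0.44 to -0.026. Relative to the median of all probes both CA2 probes turned positive under normexp. RHBG was reversed to 0.0432 under normexp with outlying backgrounds replaced, a setting chosen after the data were seen; the cause was not tested. CA1 and RHBG have no value where all 12 arrays had to be above background.

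Over all probes the limma count was 690 with the 12 arrays fitted and the RNA as a random block, 14 under normexp, 24 under median scaling, 134 for probes above background on all arrays and 135 with a trended prior. The random-block fit used a correlation of 0.164 between duplicate arrays of an RNA. It thus counted these duplicates almost as separate samples, unlike the fit to averaged RNAs. Leaving out a biological replicate or an array gave counts from 0 to 647: 277 without biological replicate 1, 647 without biological replicate 2, 15 without pH 7.0 array 6 and 4 without pH 7.4 array 1. A fit without a biological replicate rests on fewer pairs. Without biological replicate 2 the unsaturated tested probes of these genes all had a standard error of 0.364, so its count is not read as a result.

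Without the replicate block the count was 0, GLUL stood at 0.84 ± 0.30 (unadjusted p = 0.022, limma adjusted p = 1), and no call of these genes differed. A mean over a gene's probes applied to CA2 alone (-0.31). Dim signals limit RHBG and CA1, and the scanner's ceiling limits RHAG.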

Other observations

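The 3 pairwise changes of GLUL had an SD of 0.048, at or below which lay 1.21% of the tested probes, against a median SD of 0.37. The mean difference between duplicate arrays of GLUL was 0.43, higher than for most tested probes (median 0.35). The standard error of 0.22 in the limma fit draws on the spread of all probes; from the 3 GLUL changes alone it would be 0.028.

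Over the 6 RNAs, of 576 other named genes the 3 whose values ran most like those of GLUL were CTNNB1, beta-catenin (Pearson r = 0.98), the galactosyltransferase B4GALT4 (0.97) and the cytochrome P450 CYP3A12 (0.966). Their changes were 0.67 ± 0.22, 0.50 ± 0.22 and 0.43 ± 0.22. For CA2 they were TRAM1 (0.986), which takes part in protein translocation into the endoplasmic reticulum, CCDC66 (0.985) and the actin-capping subunit CAPZA2 (0.983). For CA1 they included the receptor BMPR1B (0.948) and the uncoupling protein UCP1 (0.93). For RHBG they were CASR, the calcium-sensing receptor (0.967), SERPINF1 (0.953) and the sialyltransferase ST6GALNAC2 (0.95). The 6 points share 3 slides, so these values describe the arrays and carry no test.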
